A study of Mus musculus with 9 samples.

Results

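The cell cycle and DNA replication genes described here are a list of 50 genes chosen by name, of which 48 were measured among the 22180 named genes of the arrays. A gene counted as measured where a probe set, the group of array probes that reports 1 transcript, carried its symbol alone, and where there were several the 1 with the greatest mean signal was taken. Of the members, 21 act in DNA replication or its onset (20 measured) and 29 in mitosis (28 measured). The cyclin gene Ccne2 lay only on a probe set that also carries another gene's symbol and Ccnb1 had no probe set named here, so neither has values.

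The RNA came from long-term haematopoietic stem cells (LT-HSC) of C57BL/6 bone marrow, sorted as CD34- CD135- cells of the Lin- Sca-1+ c-kit+ fraction. The 3 groups, each of 3 arrays labelled as biological replicates, were WT controls, MxCre Jak2VF/+ mice with 1 mutant allele of the kinase gene Jak2 (Jak2VF), and MxCre Jak2VF/+ EZH2-/- mice, which in addition lack Ezh2, the gene of a histone methyltransferase (Jak2VF_Ezh2KO). All mice, controls included, were given 5 doses of 300 µg of the interferon inducer pI-pC at 4 weeks of age, and the marrow was taken 12 weeks later. MxCre is a Cre recombinase under the interferon-responsive Mx1 promoter, which acts in haematopoietic cells and in other tissues, so recombination was not limited to stem cells. The sources used here do not say whether the WT mice carried MxCre or how many mice gave each sample, so p-values measure the spread between these samples, which may be partly technical.

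A dividing cell first licenses its replication origins by loading the MCM helicase with Cdc6 and Cdt1, then fires them with Cdc45 and the GINS complex as cyclin E and E2F factors drive entry into S phase. A later set of genes, for the mitotic kinases, the kinetochore, the spindle and cytokinesis, is governed by the DREAM complex and, in G2, by B-Myb and FoxM1. Long-term stem cells are mostly quiescent, so in a sorted population such genes are commonly read as a sign of how many cells are in cycle. In bulk RNA, as here, fewer cycling cells and less of these RNAs per cell cannot be told apart.

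All values are log2 signals processed by the authors, with array medians between 5.51 and 5.67 and correlations between arrays over named genes of 0.948 to 0.983. Ezh2, the deleted gene, read 8.48, 8.81 and 8.69 in WT replicates 1 to 3, 8.87, 9.09 and 8.78 in those of Jak2VF and 8.47, 8.08 and 8.42 in those of Jak2VF_Ezh2KO, so the knockout arrays were the lowest but signal remained. The position of its probes relative to the deleted part is not known here, and the remaining signal therefore does not check the deletion. For the labelled cell type, 12 measured stem cell genes were read, among them Procr (7.01 to 8.19 over the arrays), Hlf (7.83 to 8.80) and Mecom (6.91 to 7.90). The dimmest of the 12 was Fgd5 (5.68 to 6.41) and the brightest Kit (9.43 to 10.18). Cd34, the gene of a protein that the sort selected against, read 9.91 to 10.68, and the myeloid progenitor gene Mpo read 8.59 to 10.30. Csf1r, of later myeloid cells, read 5.44 to 6.00, and the erythroid gene Car1 9.94 to 11.46. These ranges do not settle which cells were present. Jak2VF_Ezh2KO replicates 1 and 2 carried Y-linked signal (Eif2s3y at 7.54 and 8.18) and low Xist, and the other 7 arrays did not, with Eif2s3y between 3.34 and 4.48. Y-linked signal was thus found only in the knockout group. In comparisons with that group, sex and the loss of Ezh2 cannot be fully told apart. As a measure of background, the mean over 1394 genes of olfactory or vomeronasal receptors was 4.22, 3.87 and 4.32 in WT replicates 1 to 3, 4.31, 3.83 and 3.92 in those of Jak2VF and 3.95, 4.05 and 3.90 in those of Jak2VF_Ezh2KO.

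Across the 48 measured members, the level varied from array to array within groups. Jak2VF replicate 2 was the highest of the 9 arrays for 43 members, 17 of the 20 replication and 26 of the 28 mitotic genes, against 17.4% of all genes. WT replicate 1 was the lowest for 30 members, 11 of them replication and 19 mitotic genes, against 16.3% of all genes, and Jak2VF_Ezh2KO replicate 2 for a further 11, of which 8 were replication and 3 mitotic genes, against 14.6% of all genes. Within WT, replicate 1 was the lowest for 47 members and replicate 2 the highest for 46, against 35.7% and 38.9% of all genes. Within Jak2VF, replicate 2 was the highest for 47 members, against 35.0% of all genes.

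**Figure D1:**
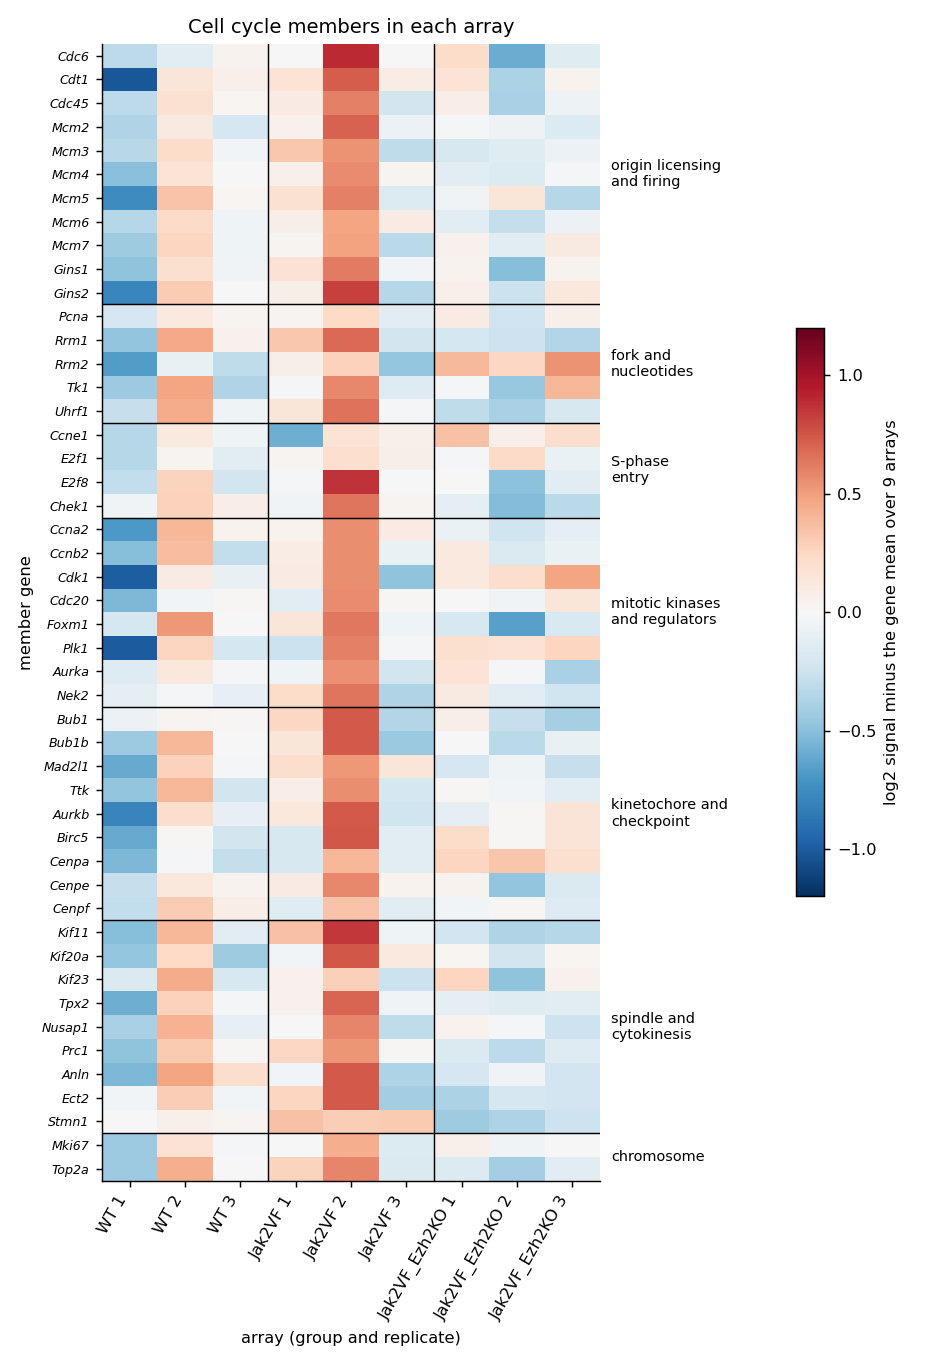
Heat map of the 48 measured members (rows, by role) in the 9 arrays (columns, by group and replicate), coloured by log2 signal minus the mean of that gene over the arrays. The column of Jak2VF replicate 2 is red and that of WT replicate 1 blue in nearly every role, whereas Rrm2, Cdk1 and Cenpa are red in all 3 Jak2VF_Ezh2KO arrays.

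Array by array, the replication and the mitotic genes are set side by side here, and the difference between the lists was not tested. Taking for each gene its deviation from its mean over the 9 arrays, the median over the 20 replication members was -0.36, 0.20 and -0.04 in WT replicates 1 to 3, 0.07, 0.60 and -0.05 in those of Jak2VF and -0.01, -0.26 and -0.07 in those of Jak2VF_Ezh2KO (log2 units). For the 28 mitotic members it was -0.47, 0.27 and -0.02 in the WT arrays, 0.09, 0.58 and -0.14 in those of Jak2VF and 0.01, -0.14 and -0.13 in those of Jak2VF_Ezh2KO. In both lists the WT arrays thus spanned the Jak2VF_Ezh2KO arrays, and Jak2VF replicates 1 and 3 lay between WT replicates 1 and 2. The median deviation of all genes was between -0.01 and 0.04 in every array.

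The members also varied more within groups than other genes, except among the Jak2VF_Ezh2KO arrays. The median SD between replicates was 0.35 in WT, 0.39 in Jak2VF and 0.15 in Jak2VF_Ezh2KO for the members, and 0.20, 0.21 and 0.16 for all genes. Jak2VF_Ezh2KO was the group with the smallest SD for 37 of the 48 members, against 44.4% of all genes. Over all arrays, the range between the highest and the lowest value of a member was 1.09 at the median, from 0.48 for Pcna to 1.74 for Cdt1, against 0.73 for all genes.

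**Figure D2:**
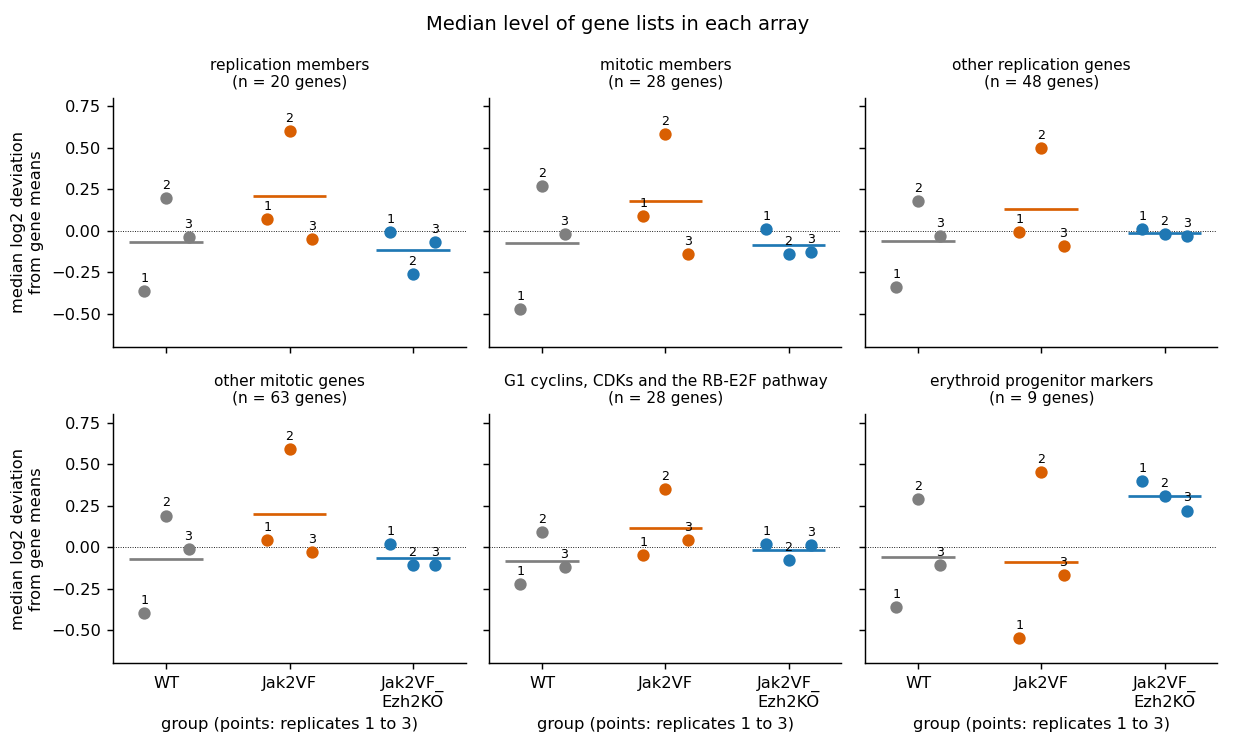
Median log2 deviation from the gene means (vertical axis) in each array for 6 gene lists, with points numbered by replicate and lines at the group mean. Jak2VF replicate 2 lies highest in every panel, and of these panels only that of the erythroid markers has all 3 Jak2VF_Ezh2KO arrays above 0.

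Other genes of the same pathways were counted in the same way. Of 48 other replication genes, such as those of DNA polymerases and replication factors, 40 were highest in Jak2VF replicate 2 and 24 lowest in WT replicate 1. Of 63 other mitotic genes, among them those of the condensins and the outer kinetochore, the counts were 55 and 37. Their medians were 0.50 and 0.59 in Jak2VF replicate 2 and -0.34 and -0.40 in WT replicate 1.

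Marker lists of other cell types also varied between these arrays. The median deviation of 9 erythroid progenitor markers was -0.36, 0.29 and -0.11 in the WT arrays, -0.55, 0.45 and -0.17 in those of Jak2VF and 0.40, 0.31 and 0.22 in those of Jak2VF_Ezh2KO, so it was also highest in Jak2VF replicate 2, but high in all Jak2VF_Ezh2KO arrays, where the members were not. Of its defining genes, Klf1 read 6.71, 7.60 and 6.78 in the WT arrays, 6.41, 7.82 and 6.61 in those of Jak2VF and 8.07, 7.90 and 7.57 in those of Jak2VF_Ezh2KO. Between Jak2VF_Ezh2KO and Jak2VF, 8 of the 9 differed positively, but Gata1 only by 0.04 and Slc4a1 by 0.05, and Tfrc differed by -0.22. For 13 genes of progenitors outside the gate the median deviation was -0.50, 0.04 and -0.65 in the WT arrays, 0.02, 0.23 and 0.29 in those of Jak2VF and 0.14, -0.03 and 0.10 in those of Jak2VF_Ezh2KO. Between Jak2VF_Ezh2KO and Jak2VF, 6 of these differed positively and 7 negatively, from -1.32 for Ctsg to 1.95 for Il7r. The 9 megakaryocyte markers were likewise highest in Jak2VF replicate 2, with medians of -0.17, 0.03 and -0.14 in the WT arrays, 0.10, 0.68 and 0.52 in those of Jak2VF and -0.28, -0.57 and -0.22 in those of Jak2VF_Ezh2KO. Their median difference was 0.58 for Jak2VF minus WT, with 7 of 9 positive, and -0.67 for Jak2VF_Ezh2KO minus Jak2VF, with 9 of 9 negative. By limma, 1 of them passed in the latter comparison, Itga2b, the gene of the platelet integrin subunit CD41, which fell by 1.45 ± 0.19 (adjusted p = 0.0441). That call was lost without Jak2VF replicate 1, 2 or 3 or Jak2VF_Ezh2KO replicate 2, and with the replicate block. In these settings 0 of all genes passed. The median of the 12 stem cell genes went the other way between Jak2VF and WT, at 0.09, 0.18 and 0.10 in the WT arrays, -0.13, -0.03 and -0.04 in those of Jak2VF and 0.02, -0.14 and 0.14 in those of Jak2VF_Ezh2KO. The difference was negative for 10 of the 12, with a median of -0.1, and positive for Kit and Hoxb5, at 0.08 and 0.16. All Jak2VF arrays lay below all WT arrays for 4 of the 12, against 2.57% of all genes. These were Procr at -0.64 ± 0.14, Mecom at -0.71 ± 0.15, Mllt3 at -0.56 ± 0.13 and Hlf at -0.40 ± 0.22 (adjusted p = 0.868, 0.863, 0.868 and 0.924). Of the 12, 3 had all Jak2VF_Ezh2KO arrays above all Jak2VF arrays and 1 had them below, against 4.18% and 6.94% of all genes. The 3 were Procr at 0.90, Mecom at 0.31 and Mllt3 at 0.35, all among the 4 just named. Those 4 were singled out by low values in the same Jak2VF arrays, which favoured such a return in advance. Meis1 differed by -0.38 between Jak2VF_Ezh2KO and Jak2VF and by -0.43 against WT, with no overlap. Of the T and NK cell, the B cell, and the neutrophil and monocyte markers, 6 of 9, 6 of 7 and 5 of 10 differed positively between Jak2VF_Ezh2KO and Jak2VF. The differences in these lists ran from -0.75 to 1.77 (Ccl5), from -0.53 to 1.53 (Igll1) and from -1.32 to 2.85 (S100a8). The receptor-gene background given above was lowest in Jak2VF replicate 2 and WT replicate 2, the arrays where the members were highest in their groups. The part of these measures in the members' pattern was not tested.

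The promoters of the members differed by role in the short words they hold, which the choice of the genes did not use. In windows from 250 bases before to 50 bases after the annotated start (RefSeq, GRCm38.p6), 40 of the 50 members had an entry, 17 replication and 23 mitotic genes. E2F words, searched as the word TTCCCGC, the word TTGGCGC or the word TTCGCGC on either strand, were found in 10 of 17 replication promoters (58.8%) and 4 of 23 mitotic promoters (17.4%), against 8.21% of the 27025 promoters of all genes. The cell cycle homology region (CHR), which the DREAM complex binds, was searched as the word TTTGAA or the word TTCGAA on either strand and lay in 4 replication (23.5%) and 17 mitotic promoters (73.9%), against 19.4% of all. CCAAT on either strand, the word of the factor NF-Y, lay in 64.7% and 82.6%, against 37.9% of all, and CHR together with CCAAT in 23.5% and 69.6%, against 7.70% of all. Words can overlap: in Mcm6 the E2F word TTGGCGC shares bases with an E2F word of the other strand, and in E2f8 it shares bases with the reverse of CCAAT. The other replication and mitotic genes had E2F words in 54.8% and 26.3% and CHR words in 16.7% and 71.9% of 42 and 57 promoters.

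**Figure D3:**
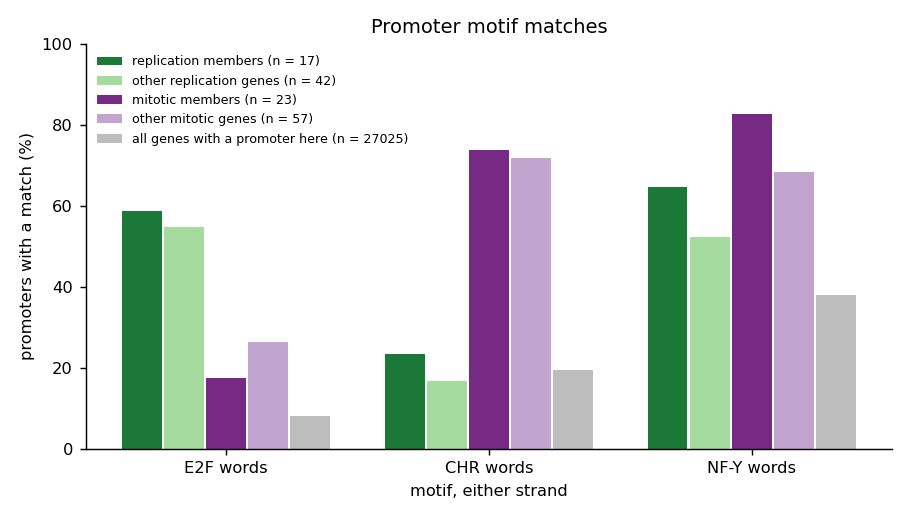
Share of promoters (vertical axis, %) with at least 1 match to the E2F, CHR or NF-Y words (horizontal axis) in replication members, other replication genes, mitotic members, other mitotic genes and all genes. E2F words stand at 58.8% in replication members and 17.4% in mitotic members, and CHR words at 23.5% and 73.9%.

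Upstream stretches of 7 members show these arrangements, 3 of replication genes with E2F and NF-Y words, then E2f8 and Cdk1 with all 3 kinds, and Kif11 and Cdc20 with CHR and NF-Y words. They are written 5′ to 3′ on the strand of the gene, with all matches in the stretch in capitals, and end before the annotated start.
Mcm6: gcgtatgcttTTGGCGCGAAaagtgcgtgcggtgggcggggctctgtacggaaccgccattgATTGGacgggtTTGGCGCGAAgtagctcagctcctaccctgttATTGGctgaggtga
Mcm5: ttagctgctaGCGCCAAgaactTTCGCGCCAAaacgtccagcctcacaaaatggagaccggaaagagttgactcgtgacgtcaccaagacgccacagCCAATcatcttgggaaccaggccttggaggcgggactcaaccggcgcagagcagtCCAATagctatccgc
Uhrf1: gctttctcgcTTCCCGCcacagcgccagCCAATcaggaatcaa
E2f8: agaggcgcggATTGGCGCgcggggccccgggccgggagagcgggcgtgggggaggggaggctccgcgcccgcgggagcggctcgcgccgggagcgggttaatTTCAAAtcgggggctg
Cdk1: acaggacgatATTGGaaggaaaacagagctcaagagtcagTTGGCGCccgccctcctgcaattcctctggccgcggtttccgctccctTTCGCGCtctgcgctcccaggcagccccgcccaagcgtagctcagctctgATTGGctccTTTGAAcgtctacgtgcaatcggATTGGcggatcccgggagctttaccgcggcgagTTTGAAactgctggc
Kif11: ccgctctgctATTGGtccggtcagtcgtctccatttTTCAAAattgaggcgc
Cdc20: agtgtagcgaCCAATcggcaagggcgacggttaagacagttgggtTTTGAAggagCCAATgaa
They lie at chr1:128359706-128359824 (Mcm6, minus strand), chr8:75109335-75109501 (Mcm5, plus), chr17:56303279-56303321 (Uhrf1, plus), chr7:48881601-48881718 (E2f8, minus), chr10:69352913-69353130 (Cdk1, minus), chr19:37376327-37376378 (Kif11, plus) and chr4:118437344-118437406 (Cdc20, minus). A match is a run of letters and does not show that a factor binds there.

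The comparison of Jak2VF with WT asked what the mutant Jak2 allele does in these cells. Of the 48 members, 45 had a positive difference, against 55.8% of all genes, with a median of 0.26 over the replication members and 0.28 over the mitotic members, and 0.03 over all genes. By limma, 0 members passed an adjusted p of 0.05, as did 0% of all genes, and the smallest adjusted p of a member was 0.924. At an unadjusted p under 0.05, 1 member was higher and 0 were lower, against 2.85% and 1.81% of all genes. That member, Stmn1, was also the only 1 of the 48 whose Jak2VF arrays all lay above all WT arrays, against 3.54% of all genes, and 0 members had them all below, against 2.57%. Without Jak2VF replicate 2 the medians were 0.07 and 0.11 with 34 positive differences, and without WT replicate 1 they were 0.08 and 0.09. Without WT replicate 2 they were 0.45 and 0.43, and without Jak2VF replicate 3 they were 0.45 and 0.42, with 12 and 7 members at an unadjusted p under 0.05 in these settings. That count was 0 without WT replicate 1 or WT replicate 3. Quantile normalization gave 0.17 and 0.15.

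The comparison of Jak2VF_Ezh2KO with Jak2VF asked what the loss of Ezh2 adds on the mutant Jak2 background. Of the members, 43 had a negative difference, with a median of -0.31 over the replication members and -0.26 over the mitotic members, against -0.04 over all genes, of which 41.8% lay above 0. Again 0 members passed by limma, against 0.0316% of all genes higher and 0.0135% lower, and the smallest adjusted p was 0.11, for Stmn1. At an unadjusted p under 0.05, 7 members were lower and 0 higher, against 3.99% and 2.91% of all genes. All 3 Jak2VF_Ezh2KO arrays lay below all 3 Jak2VF arrays for 11 members (Mcm4, Mcm6, Uhrf1, Chek1, Ccna2, Foxm1, Mad2l1, Kif11, Tpx2, Prc1 and Stmn1), against 6.94% of all genes, and above them for 0, against 4.18%. Without Jak2VF replicate 2 the medians were -0.12 and 0.00, 20 differences were positive, and at an unadjusted p under 0.05 there were 1 lower and 2 higher members. That count of lower members was 1 without Jak2VF_Ezh2KO replicate 2, 4 without replicate 3 and 13 without Jak2VF replicate 3, where the medians were -0.47 and -0.43. Without both arrays with Y-linked signal, which leaves 1 Jak2VF_Ezh2KO array, the medians were -0.25 and -0.34. This comparison and the previous one share the Jak2VF arrays, so their opposite signs are not independent of each other.

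Against WT, the Jak2VF_Ezh2KO arrays lay on both sides. The median difference was 0.00 over the replication members and -0.06 over the mitotic members, against -0.02 over all genes. Of the 48 members, 20 had a positive difference, against 46.5% of all genes. Here 0 members passed, against 0.0180% of all genes higher and 0.00451% lower, and at an unadjusted p under 0.05 there were 2 higher members, Rrm2 and Cenpa, and 1 lower member, Stmn1, against 4.54% and 4.06% of all genes. Groups did not overlap for 3 members that were higher (Rrm2, Cdk1 and Cenpa) and 3 that were lower (Chek1, Ect2 and Stmn1), against 6.28% and 6.62% of all genes, so the members lay near the background. Without WT replicate 1 the medians were -0.18 and -0.23, and without WT replicate 2 they were 0.13 and 0.13.

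**Figure D4:**
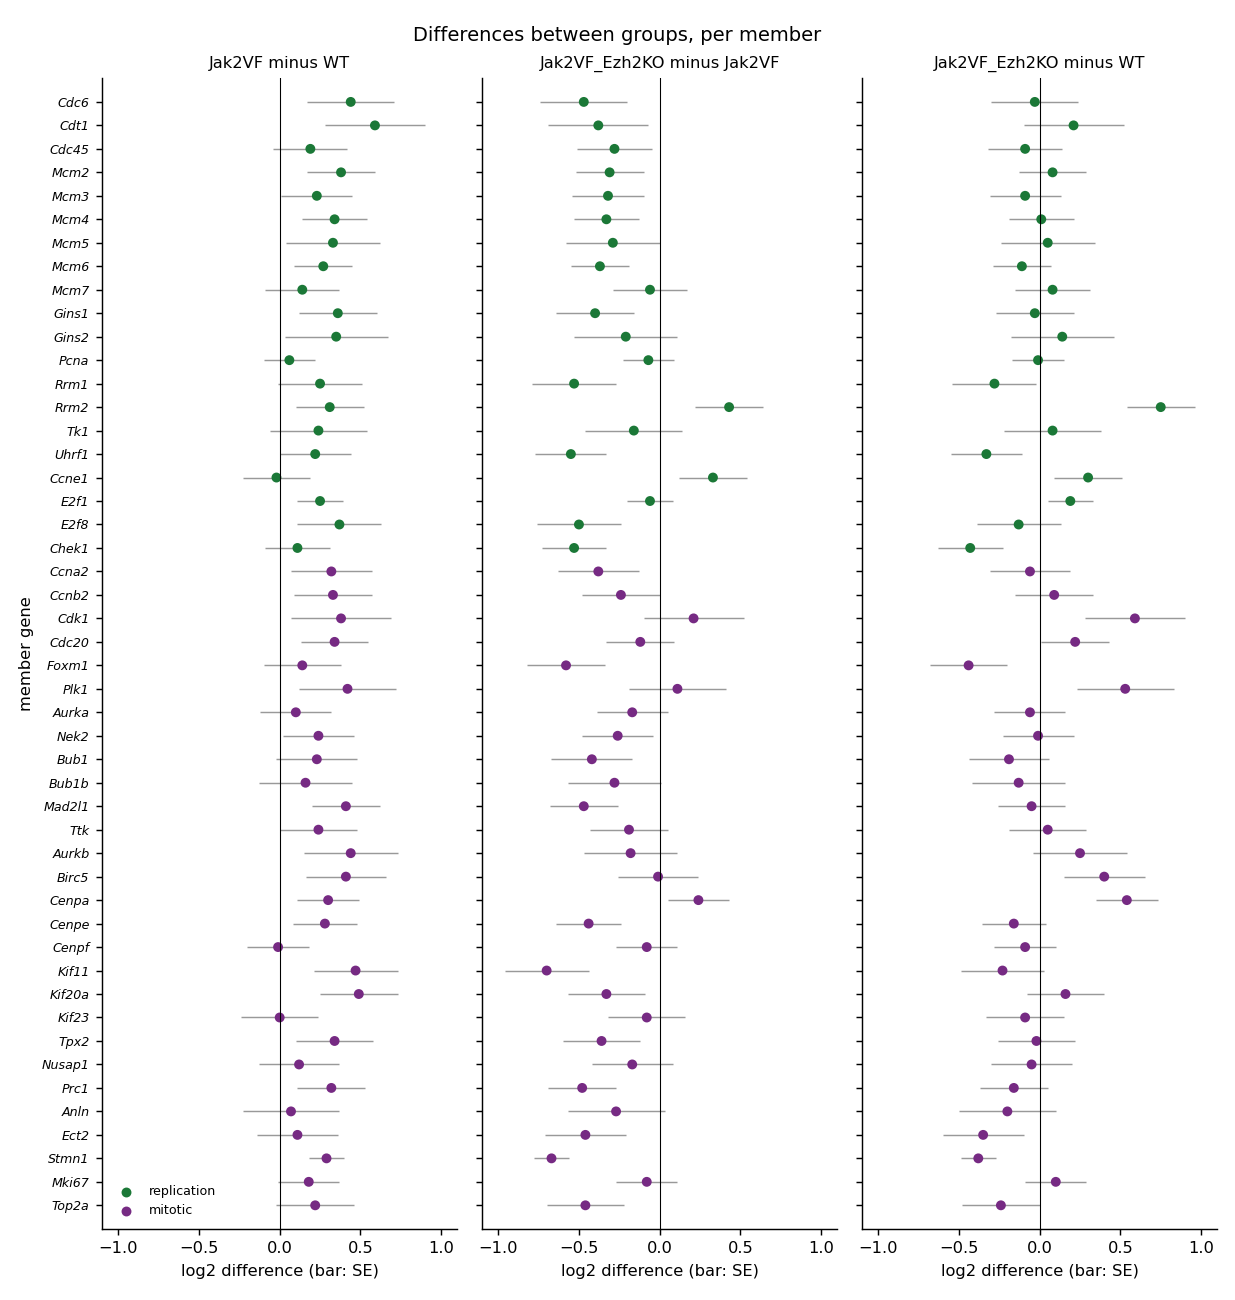
Log2 difference (horizontal axis) of each measured member (rows) in the 3 comparisons, with the standard error of the limma fit as a bar, green for replication and purple for mitotic genes. Most points lie right of 0 for Jak2VF minus WT and left of 0 for Jak2VF_Ezh2KO minus Jak2VF, with Rrm2, Ccne1, Cdk1, Plk1 and Cenpa right of 0 in both comparisons of Jak2VF_Ezh2KO.

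Among the 11 genes of origin licensing and firing, the helicase subunit gene Mcm2 read 7.52, 7.99 and 7.68 in the WT arrays, 7.93, 8.59 and 7.81 in those of Jak2VF and 7.87, 7.82 and 7.72 in those of Jak2VF_Ezh2KO. Its groups overlapped in all comparisons, with 0.38 ± 0.21 (SE) for Jak2VF minus WT and -0.31 ± 0.21 for Jak2VF_Ezh2KO minus Jak2VF (limma, adjusted p = 0.924 and 0.812). Mcm6, which had the most E2F words shown above, read 9.26, 9.83 and 9.56 in the WT arrays, 9.67, 10.08 and 9.70 in those of Jak2VF and 9.47, 9.32 and 9.53 in those of Jak2VF_Ezh2KO. The knockout arrays all lay below the Jak2VF arrays, with a difference of -0.37 ± 0.18 (adjusted p = 0.732).

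Cdt1, the loading factor whose excess is kept in check by geminin, spanned the widest range of the members. It read 6.66, 7.82 and 7.74 in the WT arrays, 7.84, 8.40 and 7.76 in those of Jak2VF and 7.84, 7.30 and 7.72 in those of Jak2VF_Ezh2KO. The WT mean thus hung on replicate 1, and the difference between Jak2VF and WT of 0.59 ± 0.31 (adjusted p = 0.924) was 0.21 without that array. Of the remaining 8 genes, Cdc6, Cdc45, Mcm3, Mcm4, Mcm5, Mcm7, Gins1 and Gins2, all differed from WT by 0.14 to 0.44 in Jak2VF, with Mcm7 the smallest and Cdc6 the largest. In Jak2VF_Ezh2KO they differed from Jak2VF by -0.06 for Mcm7 to -0.47 for Cdc6. Of these 8, only Mcm4 had no overlap, at -0.33 ± 0.20 (adjusted p = 0.777).

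At the replication fork, Pcna, the sliding clamp of the polymerases, was the steadiest member, at 10.73, 11.05 and 10.96 in the WT arrays, 10.96, 11.17 and 10.79 in those of Jak2VF and 11.03, 10.69 and 10.99 in those of Jak2VF_Ezh2KO. No difference of Pcna was larger than 0.07. Uhrf1, which brings the maintenance DNA methyltransferase to newly copied DNA, read 7.95, 8.67 and 8.18 in the WT arrays, 8.37, 8.88 and 8.21 in those of Jak2VF and 7.92, 7.84 and 8.04 in those of Jak2VF_Ezh2KO. Its knockout arrays lay below all Jak2VF arrays, by -0.55 ± 0.22 (adjusted p = 0.668), but overlapped with WT.

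Both subunits of ribonucleotide reductase, the enzyme that makes deoxyribonucleotides, were members, and their values parted in Jak2VF_Ezh2KO. The small subunit gene Rrm2 read 8.42, 9.0 and 8.78 in the WT arrays, 9.16, 9.36 and 8.62 in those of Jak2VF and 9.48, 9.34 and 9.63 in those of Jak2VF_Ezh2KO. The knockout arrays lay above all WT arrays, by 0.75 ± 0.21 or 1.68-fold (adjusted p = 0.441), and overlapped with Jak2VF. Its dimmer probe set gave 1.01 for the same comparison and 0.92 for Jak2VF minus WT, where the brighter gave 0.31. The large subunit gene Rrm1 differed by -0.28 ± 0.26 between Jak2VF_Ezh2KO and WT and by -0.53 ± 0.26 against Jak2VF (adjusted p = 0.782 and 0.738). The thymidine salvage gene Tk1 differed by 0.08 and -0.16 in these comparisons.

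Of the regulators of S-phase entry, E2f1, the activator of the replication genes, read 6.21, 6.59 and 6.43 in the WT arrays, 6.59, 6.76 and 6.63 in those of Jak2VF and 6.53, 6.79 and 6.48 in those of Jak2VF_Ezh2KO. These groups overlapped and differed by 0.25 ± 0.14 at most. Ccne1, the gene of cyclin E1, read 6.45, 6.91 and 6.74 in the WT arrays, 6.21, 6.96 and 6.86 in those of Jak2VF and 7.15, 6.86 and 7.01 in those of Jak2VF_Ezh2KO. It was lowest in Jak2VF replicate 1 rather than in WT replicate 1, and differed by -0.02 between Jak2VF and WT.

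The atypical repressor E2f8 followed the common pattern, at 7.16, 7.72 and 7.23 in the WT arrays, 7.44, 8.32 and 7.46 in those of Jak2VF and 7.45, 6.96 and 7.32 in those of Jak2VF_Ezh2KO. Its groups overlapped, with -0.50 ± 0.26 for Jak2VF_Ezh2KO minus Jak2VF (adjusted p = 0.742). Chek1, the kinase of the replication checkpoint, read 7.23, 7.55 and 7.35 in the WT arrays, 7.23, 7.91 and 7.30 in those of Jak2VF and 7.15, 6.75 and 6.95 in those of Jak2VF_Ezh2KO. Its knockout arrays lay below all arrays of both other groups, with differences of -0.53 ± 0.20 against Jak2VF and -0.43 ± 0.20 against WT (adjusted p = 0.625 and 0.592).

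Among the mitotic cyclins, kinases and regulators, Foxm1, the transcription factor of the G2 programme, read 6.09, 6.82 and 6.30 in the WT arrays, 6.45, 6.94 and 6.25 in those of Jak2VF and 6.11, 5.65 and 6.12 in those of Jak2VF_Ezh2KO. Its knockout arrays lay below all Jak2VF arrays, by -0.58 ± 0.24 (adjusted p = 0.683), and overlapped with WT. Cdk1, the kinase that starts mitosis, read 7.87, 8.95 and 8.77 in the WT arrays, 8.95, 9.41 and 8.37 in those of Jak2VF and 8.97, 9.07 and 9.33 in those of Jak2VF_Ezh2KO. The knockout arrays lay above the WT arrays, though the closest of them read 8.97 and 8.95, with a difference of 0.59 ± 0.31 (adjusted p = 0.631) that was 0.27 without WT replicate 1.

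The remaining 6 genes of this role overlapped in all comparisons except Ccna2 between Jak2VF_Ezh2KO and Jak2VF. The cyclin genes Ccna2 and Ccnb2 differed from WT by 0.32 and 0.33 in Jak2VF, and by -0.38 and -0.24 between Jak2VF_Ezh2KO and Jak2VF. The polo kinase gene Plk1, by contrast, differed by 0.11 between Jak2VF_Ezh2KO and Jak2VF and by 0.53 ± 0.30 against WT (adjusted p = 0.968 and 0.662). Cdc20, the activator of the anaphase-promoting complex, Aurka, the kinase of the spindle poles, and Nek2, that of centrosome separation, differed by -0.12, -0.17 and -0.26 between Jak2VF_Ezh2KO and Jak2VF.

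At the kinetochore, Cenpa, the histone H3 variant that marks the centromere, read 7.28, 7.80 and 7.53 in the WT arrays, 7.63, 8.22 and 7.68 in those of Jak2VF and 8.08, 8.15 and 8.01 in those of Jak2VF_Ezh2KO. The knockout arrays lay above all WT arrays, by 0.54 ± 0.19 or 1.46-fold (adjusted p = 0.504). Cenpe, a kinesin that carries chromosomes to the spindle equator, read 7.14, 7.55 and 7.46 in the WT arrays, 7.52, 8.0 and 7.46 in those of Jak2VF and 7.46, 6.95 and 7.25 in those of Jak2VF_Ezh2KO. It touched Jak2VF at 7.46 and differed from it by -0.44 ± 0.20 (adjusted p = 0.722).

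The spindle checkpoint genes Bub1, Ttk, Bub1b and Mad2l1 differed between Jak2VF and WT by 0.16 for Bub1b to 0.41 for Mad2l1. Between Jak2VF_Ezh2KO and Jak2VF they differed by -0.19 for Ttk to -0.47 ± 0.21 for Mad2l1, the 1 of these whose groups did not overlap (adjusted p = 0.726). Aurkb and Birc5, which sit in the same chromosomal passenger complex, differed between Jak2VF_Ezh2KO and WT by 0.25 and 0.40, and Cenpf by -0.09.

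Stmn1, the gene of the microtubule-destabilizing protein stathmin, had the smallest spread within groups of all measured members, with an SD pooled over the 3 groups of 0.06. It read 7.46, 7.52 and 7.49 in the WT arrays, 7.81, 7.75 and 7.77 in those of Jak2VF and 7.03, 7.09 and 7.21 in those of Jak2VF_Ezh2KO, with SDs of 0.03, 0.03 and 0.09. The groups did not overlap in any comparison, with Jak2VF highest and Jak2VF_Ezh2KO lowest. The difference was 0.29 ± 0.11 (SE) for Jak2VF minus WT, -0.67 ± 0.11 or 1.59-fold lower for Jak2VF_Ezh2KO minus Jak2VF, and -0.38 ± 0.11 for Jak2VF_Ezh2KO minus WT (limma, adjusted p = 0.924, 0.11 and 0.45). Over the alternatives the adjusted p of the -0.67 lay between 0.0807 and 0.867 and the difference between -0.72 and -0.57. Quantile normalization brought the difference between Jak2VF and WT to 0.14.

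The motor gene Kif11, whose protein pushes the spindle poles apart, read 7.57, 8.48 and 7.95 in the WT arrays, 8.43, 8.93 and 8.03 in those of Jak2VF and 7.85, 7.72 and 7.74 in those of Jak2VF_Ezh2KO. It had the most negative difference between Jak2VF_Ezh2KO and Jak2VF, at -0.70 ± 0.26 or 1.62-fold lower, with no overlap (adjusted p = 0.634), and -0.46 without Jak2VF replicate 2. The bundling factor gene Prc1 and the spindle assembly gene Tpx2 also did not overlap, at -0.48 ± 0.21 and -0.36 ± 0.24 (adjusted p = 0.707 and 0.807). Among the genes of cytokinesis, Ect2, Anln, Kif20a and Kif23 differed by -0.46, -0.27, -0.33 and -0.08, and the microtubule-binding gene Nusap1 by -0.17.

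The commonly used proliferation genes did not separate the groups. Mki67, the gene of the Ki-67 protein that coats mitotic chromosomes, read 8.74, 9.35 and 9.15 in the WT arrays, 9.18, 9.61 and 9.01 in those of Jak2VF and 9.24, 9.13 and 9.18 in those of Jak2VF_Ezh2KO. Its differences were 0.18 ± 0.19, -0.08 ± 0.19 and 0.10 ± 0.19 (limma, adjusted p = 0.935, 0.956 and 0.907). Top2a, the topoisomerase that untangles sister chromatids, read 8.56, 9.43 and 9.0 in the WT arrays, 9.26, 9.58 and 8.82 in those of Jak2VF and 8.83, 8.58 and 8.87 in those of Jak2VF_Ezh2KO. It overlapped in all comparisons, with -0.46 ± 0.24 for Jak2VF_Ezh2KO minus Jak2VF (adjusted p = 0.75).

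**Figure D5:**
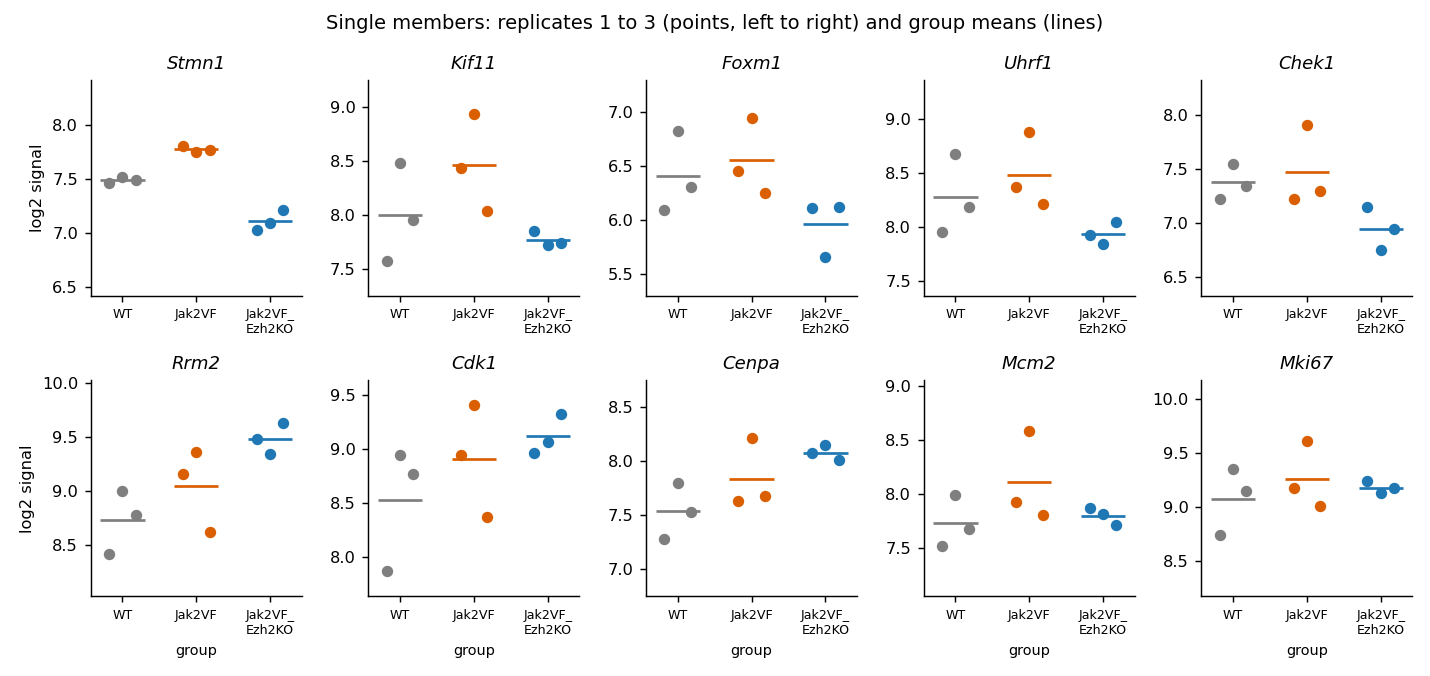
Log2 signal (vertical axis, 2 log2 units in each panel) of 10 members in the 3 replicates of each group, left to right, with lines at the group means. Stmn1 separates all 3 groups, Rrm2, Cdk1 and Cenpa have their highest means in Jak2VF_Ezh2KO, and Mcm2 and Mki67 overlap between groups.

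To set the common array pattern aside, the median deviation of the other 47 members was subtracted from each member in each array. The median SD over the 9 arrays went from 0.34 to 0.18, and it became smaller for 44 of the 48 members. In the Jak2VF_Ezh2KO arrays the values left were 0.40, 0.45 and 0.66 for Rrm2, 0.12, 0.42 and 0.59 for Cdk1, 0.27, 0.53 and 0.31 for Cenpa, 0.36, 0.26 and 0.33 for Ccne1 and 0.20, 0.37 and 0.38 for Plk1. Each of these was positive in all 3 arrays, against means of -0.29, -0.26, -0.22, -0.03 and -0.24 over the WT arrays. On the other side, Stmn1 was left at -0.43, -0.19 and -0.16, Chek1 at -0.13, -0.34 and -0.23, Kif11 at -0.23, -0.18 and -0.25 and Foxm1 at -0.20, -0.47 and -0.10. Stmn1 was, however, also at -0.19 in WT replicate 2 and -0.30 in Jak2VF replicate 2, so its groups overlapped after the subtraction. Its SD rose from 0.30 to 0.33, and that of Ccne1 from 0.29 to 0.35. These values are a description, since the genes were picked after their values were seen, and have no test.

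Of the other replication genes, 46 of 48 had a positive difference between Jak2VF and WT and 37 a negative one between Jak2VF_Ezh2KO and Jak2VF, with medians of 0.18 and -0.13. By limma 0 passed in any comparison. At an unadjusted p under 0.05, 3 were higher in Jak2VF than in WT, against 2.85% of all genes. In Jak2VF_Ezh2KO, 4 were lower than in Jak2VF and 2 higher than in WT, against 3.99% and 4.54% of all genes. Those with the smallest p were the nick-sealing ligase gene Lig1 at -0.50 and Dbf4, the activator of the origin-firing kinase Cdc7, at -0.41 for Jak2VF_Ezh2KO minus Jak2VF. The clamp loader gene Rfc2 was at 0.59 and the thymidylate synthase gene Tyms at 0.38 for Jak2VF minus WT (adjusted p = 0.573, 0.641, 0.924 and 0.924).

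Of the 63 other mitotic genes, 59 had a positive difference between Jak2VF and WT and 54 a negative one between Jak2VF_Ezh2KO and Jak2VF, with medians of 0.27 and -0.29. Again 0 passed by limma in any comparison. At an unadjusted p under 0.05, 5 were higher in Jak2VF than in WT, against 2.85% of all genes. Between Jak2VF_Ezh2KO and Jak2VF, 9 were lower and 1, Pttg1, was higher, against 3.99% and 2.91% of all genes. For Jak2VF_Ezh2KO against WT there were 0, against 4.54% higher and 4.06% lower. The abscission gene Cep55 read 5.71, 6.41 and 6.76 in the WT arrays, 6.59, 6.99 and 6.47 in those of Jak2VF and 5.77, 5.75 and 6.09 in those of Jak2VF_Ezh2KO, a difference of -0.81 ± 0.26 between the latter groups, which did not overlap. The centriole duplication kinase gene Plk4 differed by -0.52, Pimreg by -0.52 and Depdc1b by -0.54 (adjusted p = 0.529, 0.575, 0.608 and 0.623 for the 4 genes), each with no overlap. Of the 63, 14 had all Jak2VF_Ezh2KO arrays below all Jak2VF arrays and 1 had them above, against 6.94% and 4.18% of all genes.

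Upstream of S phase, 28 genes of G1 cyclins, CDKs and the RB-E2F pathway had medians of 0.14 for Jak2VF minus WT and -0.07 for Jak2VF_Ezh2KO minus Jak2VF. By limma 0 passed in any comparison. At an unadjusted p under 0.05, 3 were higher in Jak2VF than in WT, against 2.85% of all genes. In Jak2VF_Ezh2KO, 4 were lower than in Jak2VF and 1 higher than in WT, against 3.99% and 4.54% of all genes. Cdk6, a cyclin D kinase that is tied to exit of stem cells from quiescence, read 9.29, 10.26 and 9.79 in the WT arrays, 10.40, 10.49 and 10.40 in those of Jak2VF and 9.74, 9.71 and 9.51 in those of Jak2VF_Ezh2KO. All Jak2VF arrays lay above those of both other groups, by 0.65 ± 0.21 against WT and with -0.77 ± 0.21 for Jak2VF_Ezh2KO minus Jak2VF (adjusted p = 0.924 and 0.429). Of the 28 genes, 1 had all Jak2VF arrays above all WT arrays and 0 below, against 3.54% and 2.57% of all genes. For Jak2VF_Ezh2KO against Jak2VF, 4 lay below and 1 above with no overlap, against 6.94% and 4.18%. Cdk2 differed by -0.41 and E2f3 by -0.58 between Jak2VF_Ezh2KO and Jak2VF, and the DREAM subunit gene Lin54 by 0.45 for Jak2VF minus WT (adjusted p = 0.632, 0.632 and 0.924).

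Of the 8 genes listed as CDK inhibitors, among them that of the phosphatase Cdkn3, 0 passed in any comparison by limma. At an unadjusted p under 0.05 there were 0 for Jak2VF against WT. In Jak2VF_Ezh2KO, Cdkn2d was lower than in Jak2VF and Cdkn3 higher than in WT, against 3.99% and 4.54% of all genes. Between Jak2VF and WT, Cdkn1a differed by 0.33, Cdkn1b by 0.45, Cdkn2c by 0.29, Cdkn2d by 0.46 and Cdkn3 by 0.41, whereas Cdkn1c, Cdkn2a and Cdkn2b differed by -0.15, -0.03 and 0.12. Cdkn2a, often repressed by Polycomb, read between 5.73 and 6.21 over all arrays, with 5.90 in each Jak2VF_Ezh2KO array. Cdkn3, which removes the activating phosphate of CDKs, read 7.25, 7.5 and 6.56 in WT and 7.77, 8.16 and 7.55 in Jak2VF_Ezh2KO. The difference was 0.72 ± 0.26 (adjusted p = 0.518), the 1 of the 8 with no overlap there, against 6.28% of all genes higher. Like Rrm2, Cdk1 and Cenpa, Cdkn3 thus had its highest mean in Jak2VF_Ezh2KO. Among the 48 members this held for 5 (10.4%), against 29.4% of all genes.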

How the data were processed

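Gene expression was measured on 9 arrays. Per the labels' protocols, 10 ng of RNA from sorted LT-HSC was amplified and labelled with biotin, and the submitters' processing notes name Partek 6.6. The authors deposited log2 values of 41345 probe sets. How background was corrected and values normalized and summarized is not stated in those sources. Gene names came from the platform annotation, where 23521 probe sets carried 1 symbol, 1814 several and 16010 were unnamed here. No further normalization was applied.

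Groups were compared with limma (version 3.58.1, R version 4.3.3) by lmFit and eBayes without a trend, with all 9 arrays in 1 fit and Benjamini-Hochberg adjustment over 22180 genes, so adjusted p-values are from limma. The fit had 6 residual degrees of freedom and was checked on simulated data. The number of arrays limits the precision. Members and gene lists were chosen with earlier results of these data known. Members are not replicates, so list medians and counts have no test. Every array value is given for Mki67, Top2a, Cdk1, Ccnb1 (not measured), Pcna, Mcm2, Ccne1, E2f1, Foxm1 and, in each role, for the 2 members with the smallest unadjusted p in any comparison. In the pathway lists up to 4 genes with the smallest p, and all CDK inhibitors, are named. Other genes were chosen after their values were seen. The labels do not say whether replicate numbers pair the samples, and the reported fit left them unpaired.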

Additional observations from a re-analysis of the deposited data

How the results depend on the processing

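Of the members, 0 passed in any of the 3 comparisons under trended and robust moderation, ordinary least squares, quantile normalization, median centring, the dimmer 50% of genes left out (all 48 members stayed), the 2 groups alone, array weights, averaged probe sets or any array left out. Adding the receptor-gene signal as a covariate also gave 0. Leaving out the pair of arrays that carry Y-linked signal leaves 1 Jak2VF_Ezh2KO array, so no count is given for it. Both of these settings were added after seeing the data. At an adjusted p of 0.2, 1 member passed, Stmn1 for Jak2VF_Ezh2KO against Jak2VF. At an unadjusted p under 0.05 the members in that comparison numbered 3 with median centring, 2 with ordinary least squares, 12 with quantile normalization and 1 to 13 with an array left out. For Jak2VF_Ezh2KO against WT they numbered 5 with quantile normalization, 5 with the 2 groups alone and 6 with the receptor-gene covariate, against 3 in the reported fit. For Jak2VF against WT they numbered 0 to 12 with an array left out, 12 of them without WT replicate 2. With the receptor-gene signal as a covariate the medians of replication and mitotic members were 0.21 and 0.21 for Jak2VF minus WT, -0.34 and -0.31 for Jak2VF_Ezh2KO minus Jak2VF, and -0.12 and -0.18 for Jak2VF_Ezh2KO minus WT. Over all genes, deviations from the group means correlated at -0.231 to 0.484 between same-numbered arrays of different groups. Between arrays of different numbers they correlated at -0.502 to 0.333. The highest value, 0.484, was that of WT replicate 2 with Jak2VF replicate 2. Whether same-numbered arrays shared a batch was not tested. With the replicate block 0 members passed in each comparison, and over all genes 0 passed for Jak2VF_Ezh2KO against Jak2VF, where 10 passed without it, and 0 against WT, where 5 had passed. The causes of these shifts were not tested.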
